A study of Mus musculus with 12 samples.

Results

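The aminoacyl-tRNA synthetases examined here were 34 genes, 19 coding for cytosolic enzymes and 15 for mitochondrial enzymes, whose symbols end in 2. They were taken by name out of 45321 genes with a row in the tables, and all 34 passed the expression filter. Lars2 was left out although its name fits, because it is known to collect reads of ribosomal RNA. CD4+ T cells from spleens of C57BL/6 mice, purified without labelling the CD4+ cells themselves, were given 1 µM cyclosporin A (CsA) or ethanol, its vehicle, for 1 h. They were then stimulated for 2 h with 10 nM phorbol ester (PMA) plus 1 µM ionomycin, or left unstimulated. Each of the 4 groups held 3 SMART-seq libraries: CsA with PMA plus ionomycin (CsA_PI), ethanol with PMA plus ionomycin (ethanol_PI), CsA unstimulated (CsA_US) and ethanol unstimulated (ethanol_US). PMA plus ionomycin act below the T cell receptor, so this stimulus carries no antigen or costimulation. The labels do not say whether replicates came from separate mice, so p-values measure only the spread between these libraries.

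Each synthetase joins 1 amino acid to its cognate tRNAs, and the charged tRNAs are what ribosomes read. Cytosolic and mitochondrial protein synthesis use separate enzymes for most amino acids, all coded in the nucleus; Kars and Gars each code for both forms, and Eprs joins the glutamate and proline activities in a single chain. Several cytosolic enzymes sit in a multi-synthetase complex held by scaffold proteins, and many cytosolic synthetase genes are known targets of ATF4, the transcription factor of the amino acid response. Activated T cells enlarge and raise protein synthesis before they divide. CsA blocks calcineurin, the calcium-dependent phosphatase that acts on NFAT.

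Library totals ran from 10523816 to 18468044 estimated counts, and a count of 0 allowed at most 0.162 to 0.285 CPM (counts scaled to library size), from counting error alone. The library labelled CsA_PI 2 differed from its group. Over 10095 genes its counts differed from those of ethanol_US 2 by 2.3 times sampling noise (median chi-square, where 1 is sampling noise alone), the lowest of 66 library pairs; the next was 5.67, and pairs within a group without that library ran from 5.67 to 34.4. Counts of member calls from the main fit that use CsA_PI are therefore given with all 12 libraries and with the 11 others. Some values of single genes, the separation of groups and the counts on other scales are given with 12 libraries only. Summed CD4 T cell markers (Cd3e, Cd3d, Cd4, Trac, Cd28) were 1755 to 2934 CPM. The sum of 4 B cell markers was 894 CPM in CsA_PI 2, 291 in ethanol_PI 2, 862 in CsA_US 2 and 872 in ethanol_US 2, but 63.6 to 144 in replicates 1 and 3. Myeloid and dendritic markers likewise summed to 156 to 171 CPM in the replicate 2 libraries and 22.8 to 44.0 in the others. Every B cell marker had counts in all 12 libraries, and only Cd8a and Itgam were at 0, each in 1 library. CD8 and NK markers summed to 22.8 to 42.4 CPM and erythroid and platelet markers to 21.3 to 107. Counts of members are therefore also given for replicates 1 and 3 alone. In bulk RNA, a change in the share of expressing cells and a change in RNA per cell cannot be told apart.

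RefSeq promoters (build GRCm38.p6, 250 bases before to 50 after the start) were held for 25 of the 34 members, 12 cytosolic and 13 mitochondrial. None was held for Cars, Hars, Lars, Nars, Rars, Vars, Wars, Hars2 or Pars2. The motif counts therefore leave out Rars and Cars, which are among the largest cytosolic rises below. The C/EBP-ATF core TGATGNAA, searched on both strands, was present in 5 of the 12 cytosolic promoters (Aars, Gars, Iars, Tars and Yars) and in 0 of the 13 mitochondrial ones, against 3.97% of all 32851 promoters in the table. The E-box CACGTG was present in 4 cytosolic promoters (Aars, Farsb, Iars and Tars) and 1 mitochondrial promoter (Ears2), against 7.15% of all. The AP-1 letters TGANTCA were present in 1 cytosolic promoter (Qars) and 0 mitochondrial ones, against 7.81% of all. The other cytosolic promoters held no C/EBP-ATF core. They were those of Farsa, Farsb, Kars and Sars, whose transcripts rose on stimulation, and of Dars, Eprs and Qars. Of these, Eprs and Sars are counted below among the known ATF4 targets. No match of these motifs overlapped another in the promoters printed. The 5 promoters with the C/EBP-ATF core belong to genes that are all compared below, and the promoter of Yars2, a mitochondrial enzyme whose transcript also rose on stimulation, is shown beside them, since it held none of the 3 motifs. Capitals mark the C/EBP-ATF core (8 letters, on either strand) and the E-box (6 letters); a match describes letters only. They lie at chr8:111033592-111033891 (Aars, + strand), chr6:55037751-55038050 (Gars, + strand), chr13:49681880-49682179 (Iars, + strand), chr15:11399609-11399908 (Tars, - strand), chr4:129189653-129189952 (Yars, + strand) and chr16:16302715-16303014 (Yars2, + strand). In Gars, Tars and Yars the core began 30 bases before, 15 bases before and 3 bases after the start.
Aars: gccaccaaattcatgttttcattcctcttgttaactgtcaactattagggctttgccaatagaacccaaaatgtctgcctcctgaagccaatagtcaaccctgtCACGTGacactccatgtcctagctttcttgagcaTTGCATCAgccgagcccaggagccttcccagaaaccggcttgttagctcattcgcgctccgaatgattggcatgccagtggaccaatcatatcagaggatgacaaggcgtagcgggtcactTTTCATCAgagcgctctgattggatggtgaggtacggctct
Gars: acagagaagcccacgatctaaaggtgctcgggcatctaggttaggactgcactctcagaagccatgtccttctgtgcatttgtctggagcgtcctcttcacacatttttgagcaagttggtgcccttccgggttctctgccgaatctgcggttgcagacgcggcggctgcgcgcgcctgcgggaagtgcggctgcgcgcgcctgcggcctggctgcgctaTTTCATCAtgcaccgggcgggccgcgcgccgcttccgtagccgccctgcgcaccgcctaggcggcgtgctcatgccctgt
Iars: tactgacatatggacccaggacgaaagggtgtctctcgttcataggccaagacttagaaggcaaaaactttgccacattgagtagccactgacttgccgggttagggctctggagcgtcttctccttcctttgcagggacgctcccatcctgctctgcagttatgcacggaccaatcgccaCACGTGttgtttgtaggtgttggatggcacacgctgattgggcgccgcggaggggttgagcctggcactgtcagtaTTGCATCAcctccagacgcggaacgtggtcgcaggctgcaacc
Tars: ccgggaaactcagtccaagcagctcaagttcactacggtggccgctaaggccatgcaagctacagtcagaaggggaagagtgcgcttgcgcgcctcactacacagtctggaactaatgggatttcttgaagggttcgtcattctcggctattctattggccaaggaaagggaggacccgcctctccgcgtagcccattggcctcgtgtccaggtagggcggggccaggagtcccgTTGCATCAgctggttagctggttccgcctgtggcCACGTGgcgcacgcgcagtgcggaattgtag
Yars: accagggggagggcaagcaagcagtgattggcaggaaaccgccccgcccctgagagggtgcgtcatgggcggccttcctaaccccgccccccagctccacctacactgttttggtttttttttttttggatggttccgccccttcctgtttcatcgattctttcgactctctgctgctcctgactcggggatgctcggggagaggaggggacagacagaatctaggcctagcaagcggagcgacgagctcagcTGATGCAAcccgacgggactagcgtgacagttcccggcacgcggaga
Yars2: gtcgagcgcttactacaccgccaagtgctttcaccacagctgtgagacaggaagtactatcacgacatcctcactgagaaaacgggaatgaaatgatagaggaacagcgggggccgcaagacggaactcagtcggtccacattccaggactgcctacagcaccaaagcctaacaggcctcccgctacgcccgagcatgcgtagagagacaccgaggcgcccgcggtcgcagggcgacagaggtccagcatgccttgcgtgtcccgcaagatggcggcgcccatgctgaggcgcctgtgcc

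Levels between genes are given per length, in TPM (abundance corrected for transcript length and library depth). In unstimulated vehicle-treated cells the median cytosolic gene stood at 61.8 TPM and the median mitochondrial gene at 9.22 TPM. Eprs was highest at 214 ± 28.4 TPM (SD, n = 3), followed by Nars (asparagine) at 143 ± 37.8, Farsa at 127 ± 18.8, Sars (serine) at 114 ± 21.5, Kars at 103 ± 16.4 and Qars (glutamine) at 101 ± 8.23. From Nars to Qars, each step between neighbours was smaller than the larger SD of the pair. Mars2, the mitochondrial methionine enzyme, was lowest at 1.92 ± 0.594 TPM, and Lars (leucine) was the lowest cytosolic gene at 20.1 ± 2.39 TPM. Of 15 pairs of a cytosolic and a mitochondrial enzyme for the same amino acid (Eprs and Fars2 each enter 2 pairs), the cytosolic gene had the higher mean TPM in all 15, by 1.08-fold for tyrosine and up to 53.2-fold for glutamate.

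The summed TPM of the 19 cytosolic genes was 1555, 1474 and 1949 in CsA_PI, 2102, 2426 and 2233 in ethanol_PI, 1344, 1127 and 1299 in CsA_US, and 1349, 1477 and 1507 in ethanol_US. All ethanol_PI libraries lay above every unstimulated library, and CsA_PI 2 lay at the unstimulated level. For the 15 mitochondrial genes the sum was 121, 242 and 161 TPM in CsA_PI, 202, 199 and 200 in ethanol_PI, 234, 214 and 239 in CsA_US, and 227, 246 and 248 in ethanol_US. The ratio of the sums was thus 10.4 to 12.2 in ethanol_PI and 5.95 to 6.07 in ethanol_US, and in CsA_PI it was 12.9 and 12.1 in replicates 1 and 3 but 6.08 in replicate 2. Yars2 alone had a mean of 92.3 TPM in ethanol_PI and 40.7 TPM in ethanol_US. The mitochondrial sum in ethanol_PI, and the ratio with it, therefore leaned heavily on this 1 gene. On TMM-scaled CPM, which is not per length, the mitochondrial sum was 223, 330 and 248 in CsA_PI, 369, 356 and 342 in ethanol_PI, 321, 297 and 299 in CsA_US, and 295, 327 and 310 in ethanol_US. The mitochondrial sum was therefore lower in every ethanol_PI library than in every ethanol_US library in TPM, and higher in CPM, so its direction on stimulation in vehicle depended on the scale. The cytosolic sum was higher in ethanol_PI on both, at 4760 to 4940 CPM against 1904 to 2284 CPM in ethanol_US. These sums are descriptions, with no test.

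**Figure D1:**
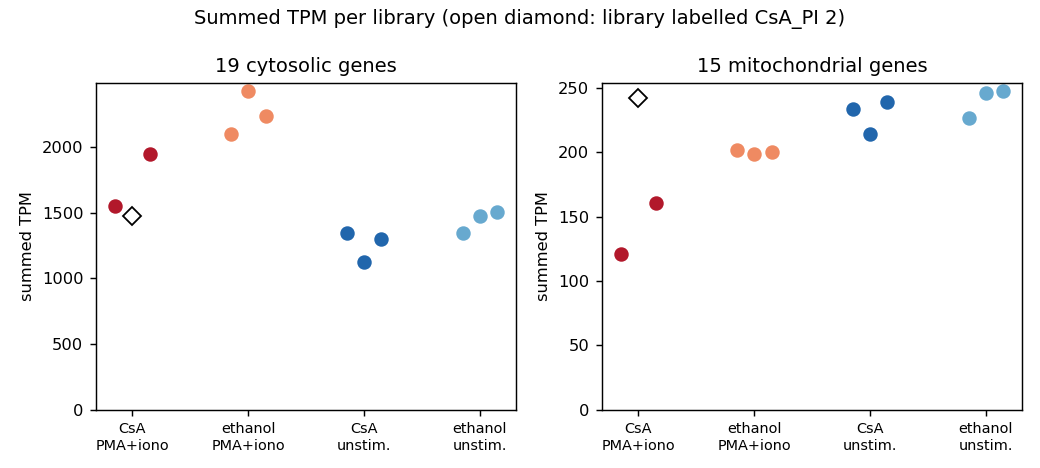
Summed TPM (y axes, linear from 0) of the 19 cytosolic genes (left) and 15 mitochondrial genes (right) in each library, by group (x axes). Each point is 1 library and the open diamond is CsA_PI 2; ethanol_PI is highest for cytosolic genes, and CsA_PI 1 and 3 are lowest for mitochondrial genes, at 121 and 161.

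Stimulation in vehicle-treated cells (ethanol_PI against ethanol_US) asks how the members respond to PMA plus ionomycin without the drug. With all 12 libraries, 15 of 19 cytosolic genes rose and 0 fell (edgeR quasi-likelihood test, Benjamini-Hochberg adjusted p under 0.05), while 20.1% of all 14398 genes tested rose and 19.7% fell. The median cytosolic log2 fold change was 1.36, against -0.02 over all genes. Of the 15 mitochondrial genes, 2 rose and 2 fell, with a median of -0.16. In 15 cytosolic genes all 3 ethanol_PI libraries exceeded all 3 ethanol_US libraries, as in 28.0% of all genes. With 11 libraries the cytosolic count was again 15 and 0 (20.8% of all 15057 genes rose and 22.9% fell), and 2 mitochondrial genes rose and 4 fell. Replicates 1 and 3 alone, a fit for which no share of all genes is given, gave 15 and 0 cytosolic, 2 and 3 mitochondrial calls. With library totals as the scale, the all-gene median shifted by -0.60, leaving 12 cytosolic rises and 2 falls (Eprs -0.84 and Qars -0.88), with 2 rises and 5 falls among mitochondrial genes, while 11% of all genes rose and 37.8% fell. Limma on log2 TPM gave 13 and 2 cytosolic, and 2 and 5 mitochondrial calls, while 13.1% of all 12541 genes in that fit rose and 35.3% fell. The share of mitochondrial falls on these scales was thus near that of all genes.

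**Figure D2:**
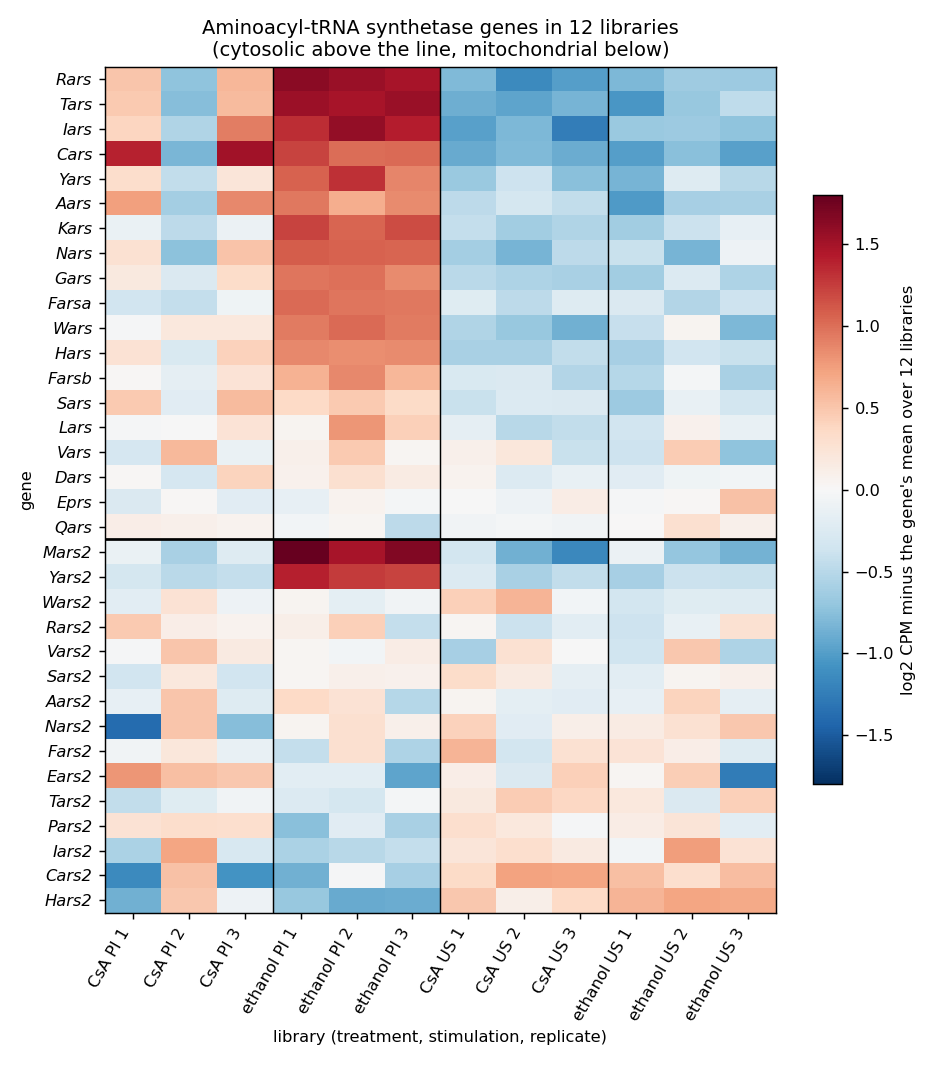
Heat map of log2 CPM minus each gene's mean over the 12 libraries (colour), for 34 genes (rows, cytosolic above the line, each block ordered by log2 fold change on stimulation in vehicle) and 12 libraries (columns). The cytosolic block is red in ethanol_PI down to Sars, the mitochondrial block is red there for Mars2 and Yars2, and the CsA_PI 2 column resembles the unstimulated columns.

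The 4 largest cytosolic rises were in Rars, Tars, Iars and Cars. Rars, the arginine enzyme of the complex (chr11:35808381-35834506), had 381, 365 and 348 CPM in ethanol_PI, against 71.0, 79.3 and 78.7 CPM in ethanol_US. It rose by 2.26 ± 0.28 on the log2 scale (SE; edgeR, adjusted p = 6.45e-05). Tars, the threonine enzyme (chr15:11382301-11399665), had 449, 432 and 452 CPM in ethanol_PI, against 75.0, 95.9 and 113 CPM in ethanol_US, a rise of 2.23 ± 0.29 (edgeR, adjusted p = 9.5e-05). In both genes every stimulated library stood far above every unstimulated one. Iars, the isoleucine enzyme (chr13:49682100-49734267), had 297, 355 and 316 CPM in ethanol_PI, against 74.4, 75.0 and 71.3 CPM in ethanol_US (log2 2.13 ± 0.29; edgeR, adjusted p = 0.000125). Cars, which charges cysteine (chr7:143557230-143600090), had 289, 250 and 254 CPM in ethanol_PI, against 63.0, 74.0 and 63.2 CPM in ethanol_US. Its log2 rise was 1.99 ± 0.43 (edgeR, adjusted p = 0.00369). Neither gene's groups overlapped.

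The other 11 cytosolic rises ran from 0.58 to 1.60 on the log2 scale (edgeR, adjusted p from 3.1e-05 to 0.038). They were Yars (tyrosine, 1.60 ± 0.23), Aars (alanine, 1.54 ± 0.30), Kars (lysine, 1.52 ± 0.17), Nars (1.48 ± 0.29), Gars (glycine, 1.40 ± 0.17), Farsa (1.36 ± 0.15), Wars (tryptophan, 1.32 ± 0.20), Hars (histidine, 1.29 ± 0.18), Farsb (1.06 ± 0.19), Sars (0.75 ± 0.20) and Lars (0.58 ± 0.21). Farsa and Farsb code for the alpha and beta subunits of the phenylalanine enzyme, and both subunits rose. Lars had 55.1, 92.5 and 71.6 CPM in ethanol_PI, against 41.7, 56.0 and 48.6 CPM in ethanol_US, so its groups overlapped, and its log2 change was -0.01 under library totals and on log2 TPM. Farsb and Sars kept positive values of 0.46 and 0.15 under library totals without a call (edgeR, adjusted p = 0.0514 and 0.463). The annotation lists a pseudogene of Kars, Kars-ps1, whose reads could be shared with Kars by the quantification.

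Dars (aspartate), Eprs, Qars and Vars (valine) did not pass the test, with log2 values of 0.28 ± 0.18, -0.23 ± 0.18, -0.28 ± 0.16 and 0.33 ± 0.31. Eprs, the most abundant member per length, had 358, 414 and 385 CPM in ethanol_PI, against 388, 402 and 567 CPM in ethanol_US. Dars, Eprs and Qars are among the 7 members that belong to the multi-synthetase complex. Of those 7, 4 rose (Rars, Iars, Kars and Lars), with a median log2 value of 0.58, while 11 of the 12 cytosolic members outside it rose, with a median of 1.38. Among the 11 cytosolic members known as ATF4 targets, 10 rose, all but Eprs, with a median of 1.48. Under library totals 3 of the complex enzymes rose and 2 fell, 9 of the others rose and 0 fell, and 8 of the ATF4 targets rose and 1 fell. These subsets overlap, and their difference from each other was not tested.

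Mitochondrial enzymes moved singly. Mars2, for methionine (chr1:55237177-55248470), had 70.2, 56.2 and 64.1 CPM in ethanol_PI, against 18.7, 12.4 and 11.2 CPM in ethanol_US, and rose by 2.17 ± 0.27 (edgeR, adjusted p = 6.29e-05). Yars2, for tyrosine (chr16:16302965-16309640), had 117, 107 and 104 CPM in ethanol_PI, against 29.5, 34.1 and 33.6 CPM in ethanol_US, and rose by 1.76 ± 0.15 (edgeR, adjusted p = 7.51e-06). Its cytosolic counterpart Yars had a log2 value of 1.60, whereas in the other 14 of the 15 pairs the cytosolic gene had the larger log2 value. Hars2, for histidine (chr18:36783008-36792562), had 22.2, 18.9 and 19.1 CPM in ethanol_PI, against 54.5, 58.3 and 56.8 CPM in ethanol_US, and fell by 1.49 ± 0.27 on the log2 scale (edgeR, adjusted p = 0.00107). The groups of these 3 genes did not overlap. Hars2 lies on the + strand and overlaps Hars on the - strand (chr18:36766528-36783205) at their 5′ ends, and the counts do not use strand; Hars rose while Hars2 fell. Iars2, for isoleucine (chr1:185284726-185329396), had 25.6, 26.9 and 28.1 CPM in ethanol_PI, against 36.8, 63.9 and 45.6 CPM in ethanol_US. It fell by 0.86 ± 0.30 (edgeR, adjusted p = 0.0351), with no overlap of the groups.

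The remaining 11 mitochondrial genes did not pass the test with 12 libraries, their log2 values running from -0.92 (Cars2) to 0.20 (Wars2). Cars2 had 6.67, 11.9 and 8.01 CPM in ethanol_PI, against 17.7, 15 and 17.8 CPM in ethanol_US, and Pars2, for proline, had 5.72, 8.34 and 6.41 CPM, against 10.5, 11.3 and 8.44 CPM. Neither gene's groups overlapped, those of Pars2 by a narrow margin, while 27.4% of all genes showed such a downward separation. With 11 libraries both fell, by 0.97 ± 0.23 and 0.62 ± 0.23 (edgeR, adjusted p = 0.00394 and 0.0432), and Cars2 also fell by 1.01 ± 0.35 with the replicate number as a block (edgeR, adjusted p = 0.0371).

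**Figure D3:**
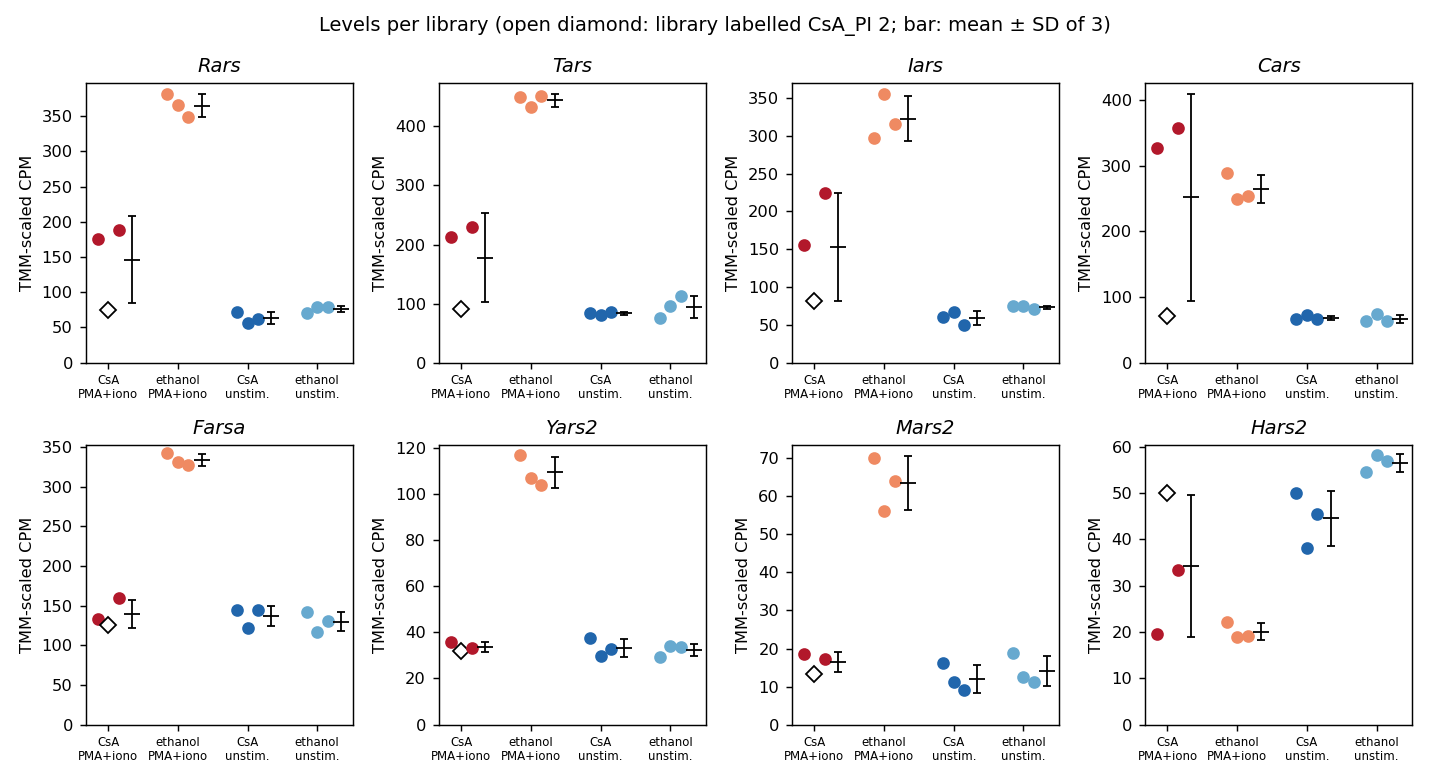
TMM-scaled CPM (y axes, linear from 0) of 8 members in the 4 groups (x axes), 1 point per library, with the mean and SD of 3 beside them; the open diamond is CsA_PI 2. Farsa, Yars2 and Mars2 lie at similar levels in CsA_PI and in both unstimulated groups, whereas Cars in CsA_PI 1 and 3, at 327 and 358 CPM, is above all ethanol_PI libraries.

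CsA in stimulated cells (CsA_PI against ethanol_PI) addresses how the transcript level reached on stimulation differs with the drug. Dependence on the drug's target was not tested. This comparison shares the ethanol_PI libraries with the one above, so their values are set side by side and not related. With 12 libraries, 11 of 19 cytosolic genes fell with CsA and 0 rose, while 12.7% of all genes fell and 10.3% rose; the cytosolic median was -0.68 and that of all genes 0.06. Of the mitochondrial genes 2 fell (Mars2 and Yars2) and 1 rose (Pars2), with a median of 0.12. With 11 libraries, 10 cytosolic genes fell and 1 rose, and 3 mitochondrial genes fell and 1 rose, against 12.1% of all genes falling and 10.4% rising. Replicates 1 and 3 alone gave 10 falls and 0 rises among cytosolic genes, and 3 falls and 1 rise among mitochondrial genes. No share of all genes is given for that fit. In 11 cytosolic genes all CsA_PI libraries, CsA_PI 2 included, lay below all ethanol_PI libraries, as in 20.5% of all genes. In 1 all lay above, as in 17.4%. With library totals as the scale (all-gene median shifted by 0.34) 7 cytosolic genes fell and 1 rose (Qars, 0.58), and 2 mitochondrial genes fell and 3 rose, while 8.29% of all genes fell and 19.9% rose. Limma on log2 TPM gave the same 4 counts, while 9.69% of all genes fell and 13.9% rose. Hars, Wars and Farsb, called in the main fit with 12 libraries, were called on neither of these scales. Iars was called on library totals but not with limma, and Nars with limma but not on library totals.

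The largest falls among cytosolic genes were in Kars, Rars, Tars and Farsa. Kars (chr8:111993443-112011323) had 147, 115 and 149 CPM in CsA_PI, against 372, 331 and 361 CPM in ethanol_PI. It fell by 1.37 ± 0.17 on the log2 scale with 12 libraries and by 1.22 ± 0.17 with 11 (edgeR, adjusted p = 0.000123 and 0.000154). Farsa (chr8:84856989-84869257) had 133, 126 and 160 CPM in CsA_PI, against 342, 331 and 328 CPM in ethanol_PI. It fell by 1.26 ± 0.15 and 1.16 ± 0.15 with 12 and 11 libraries (edgeR, adjusted p = 0.000119 and 0.000128). For both genes the library labelled CsA_PI 2 was the lowest of its group, and no CsA_PI library reached the ethanol_PI levels.

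Rars had 175, 75.3 and 188 CPM in CsA_PI, against 381, 365 and 348 CPM in ethanol_PI, and Tars had 213, 90.8 and 230 CPM, against 449, 432 and 452 CPM. In both, CsA_PI 2 lay far below CsA_PI 1 and 3, which themselves lay between the stimulated and unstimulated vehicle levels. Each fell by 1.32 with 12 libraries (SE 0.27 for Rars and 0.28 for Tars; edgeR, adjusted p = 0.00382 and 0.00502). Without CsA_PI 2 each fell by 0.97 (SE 0.15 and 0.17; edgeR, adjusted p = 0.000532 and 0.00118). Iars had 155, 80.9 and 224 CPM in CsA_PI, against 297, 355 and 316 CPM in ethanol_PI, and it fell by 1.07 ± 0.28 with 12 and by 0.73 ± 0.17 with 11 libraries. Smaller falls called in both fits were Yars (-1.03 and -0.79), Nars (-0.96 and -0.63), Wars (-0.84 and -0.84), Gars (-0.83 and -0.64) and Hars (-0.68 and -0.47). Farsb fell by 0.66 with 12 libraries, and with 11 its value was -0.54 (edgeR, adjusted p = 0.0661).

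Cars, Aars, Sars and Lars had risen on stimulation without a call for CsA in the 12 libraries, at -0.07 ± 0.42, -0.36 ± 0.30, -0.08 ± 0.20 and -0.38 ± 0.20. Cars had 327, 70.8 and 358 CPM in CsA_PI, against 289, 250 and 254 CPM in ethanol_PI: CsA_PI 1 and 3 were above every ethanol_PI library and CsA_PI 2 was at the unstimulated level. Its sign turned under library totals (0.19, no call), and without CsA_PI 2 it rose with CsA by 0.41 ± 0.14 (edgeR, adjusted p = 0.0461); with replicates 1 and 3 alone the value was 0.37 without a call (edgeR, adjusted p = 0.065). Aars had 376, 147 and 411 CPM in CsA_PI, against 434, 354 and 408 CPM in ethanol_PI, and Sars had 225, 142 and 241 CPM, against 210, 226 and 208 CPM. In both genes CsA_PI 1 and 3 overlapped or exceeded ethanol_PI, and the 11-library values were 0.02 ± 0.16 and 0.15 ± 0.16.

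Among mitochondrial enzymes, Mars2 had 18.6, 13.4 and 17.2 CPM in CsA_PI, against 70.2, 56.2 and 64.1 CPM in ethanol_PI. Yars2 had 35.8, 31.9 and 33.2 CPM in CsA_PI, against 117, 107 and 104 CPM in ethanol_PI. With CsA, both stood close to their unstimulated levels in all 3 libraries, CsA_PI 2 included. Mars2 fell by 1.95 ± 0.27 and Yars2 by 1.70 ± 0.15 (edgeR, adjusted p = 0.000236 and 1.64e-05), and with 11 libraries by 1.79 and 1.63. Pars2 moved the other way, with 11.5, 12 and 11.9 CPM in CsA_PI, against 5.72, 8.34 and 6.41 CPM in ethanol_PI, a rise of 0.79 ± 0.23 (edgeR, adjusted p = 0.0279). With 11 libraries Pars2 rose by 0.81 ± 0.25 (edgeR, adjusted p = 0.0357). Nars2, for asparagine, had 4.84, 17.8 and 7.45 CPM in CsA_PI, against 13.1, 15.4 and 13.4 CPM in ethanol_PI, and it fell only without CsA_PI 2, by 1.16 ± 0.28 (edgeR, adjusted p = 0.00833).

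**Figure D4:**
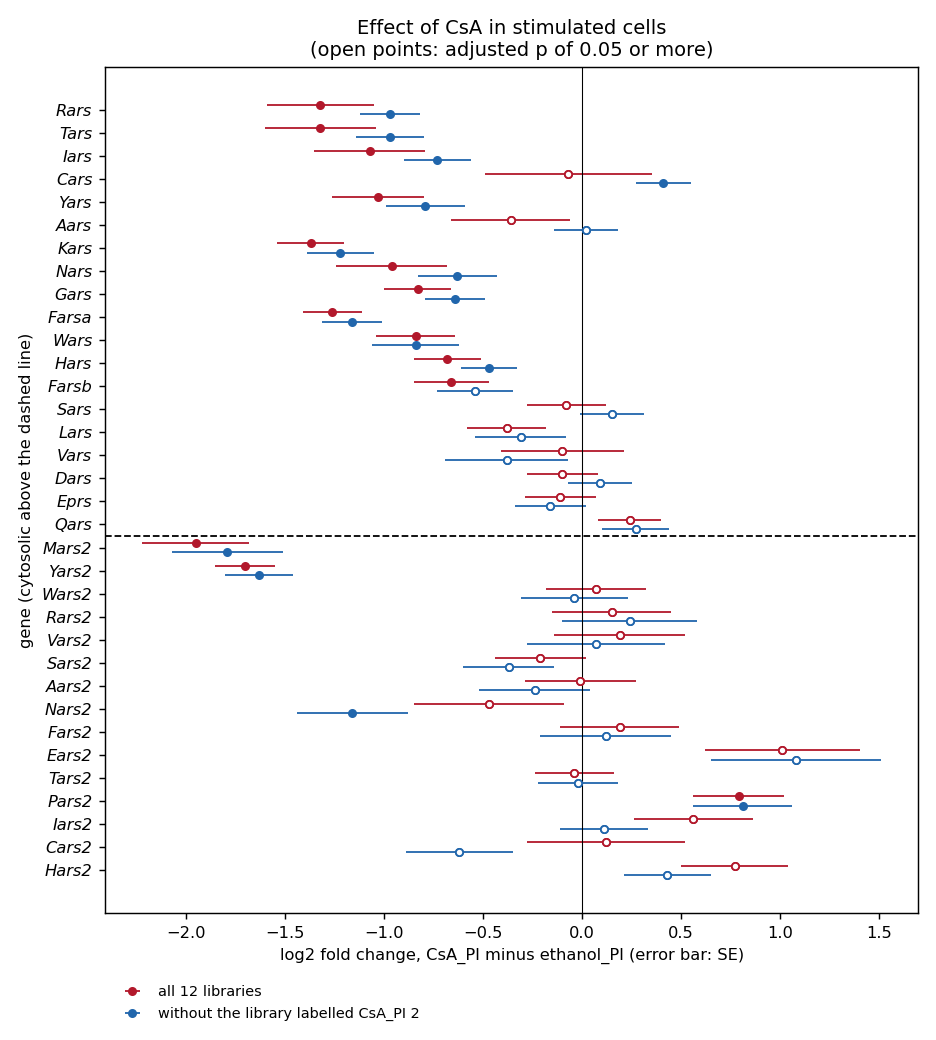
Log2 fold change of CsA_PI over ethanol_PI (x axis, bars are SE) for 34 genes (y axis, cytosolic above the dashed line), with 12 libraries (red) and without CsA_PI 2 (blue); open points did not pass the test. Yars2 and Mars2 are the lowest of the mitochondrial genes, and Cars is on opposite sides of 0 in the 2 fits, at -0.07 and 0.41.

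What stimulation did under CsA (CsA_PI against CsA_US) rests heavily on the library labelled CsA_PI 2. With all 12 libraries 6 cytosolic genes rose and 0 fell, and 0 mitochondrial genes were called, while 3.9% of all genes rose and 1.38% fell; the cytosolic median was 0.64 and the mitochondrial median -0.17. Without it, 11 cytosolic genes rose and 0 fell, and 0 mitochondrial genes rose and 5 fell, while 14.1% of all genes rose and 14.6% fell; the medians were 0.77 and -0.37. Replicates 1 and 3 alone, again without a share of all genes, gave 12 cytosolic rises and 5 mitochondrial falls. The 6 genes called with 12 libraries were Cars (1.88 ± 0.43), Iars (1.37 ± 0.28), Rars (1.21 ± 0.27), Tars (1.09 ± 0.28), Wars (0.82 ± 0.20) and Hars (0.70 ± 0.17), with edgeR adjusted p from 0.0395 to 0.0468. That count was 3 with the replicate block (Rars, Wars and Iars) and 2 without ethanol_US 3. It was 0 when ethanol_US 1, CsA_PI 1, CsA_PI 3, or any single ethanol_PI or CsA_US library was left out. It was also 0 under library totals and with limma on log2 TPM, settings in which 0.0347% and 0.311% of all genes rose and 0% and 0.0797% fell. In the fits that left out 1 library, the calls over all genes, in either direction, ran from 0 to 4321.

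With 11 libraries the same 6 were called, at 2.29 ± 0.14 for Cars, 1.65 ± 0.17 for Iars, 1.49 ± 0.15 for Rars, 1.38 ± 0.16 for Tars, 0.85 ± 0.14 for Hars and 0.76 ± 0.21 for Wars, and Aars (1.19), Nars (1.00), Yars (0.83), Sars (0.79) and Gars (0.77) joined them. Cars had 66.5, 72.2 and 67.3 CPM in CsA_US, far below CsA_PI 1 and 3. Farsa and Kars, which rose in vehicle, had values of 0.06 ± 0.15 and 0.39 ± 0.16 under CsA (edgeR, adjusted p = 0.789 and 0.0861). Among mitochondrial genes, Cars2 fell by 1.73 ± 0.28, Nars2 by 1.21 ± 0.27, Hars2 by 0.79 ± 0.22, Iars2 by 0.68 ± 0.22 and Tars2, for threonine, by 0.61 ± 0.21 (edgeR, adjusted p from 0.000467 to 0.0414). Hars2 had 19.5, 50 and 33.3 CPM in CsA_PI, against 50, 38.2 and 45.4 CPM in CsA_US, so CsA_PI 2 stood among the unstimulated libraries. Across the 19 cytosolic genes, the log2 values of stimulation with CsA and in vehicle had a Pearson correlation of 0.81 with 11 libraries and 0.79 with 12. Across the 15 mitochondrial genes it was 0.55 and 0.48. By label the comparisons share no libraries. With 12, however, CsA_PI 2 enters the one and ethanol_US 2 the other, and their counts differed by only 2.3 times sampling noise. The correlations are descriptions across genes of the same libraries. With 12 libraries, CsA_PI 2 included, the value with CsA was below that in vehicle for 17 of 19 cytosolic and 7 of 15 mitochondrial genes. With 11 it was below for 14 and 9. Over all genes the shares were 46.8% and 47.7%, but these include genes that fell on stimulation. They are therefore not a matched background for the cytosolic genes, most of which rose in vehicle.

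**Figure D5:**
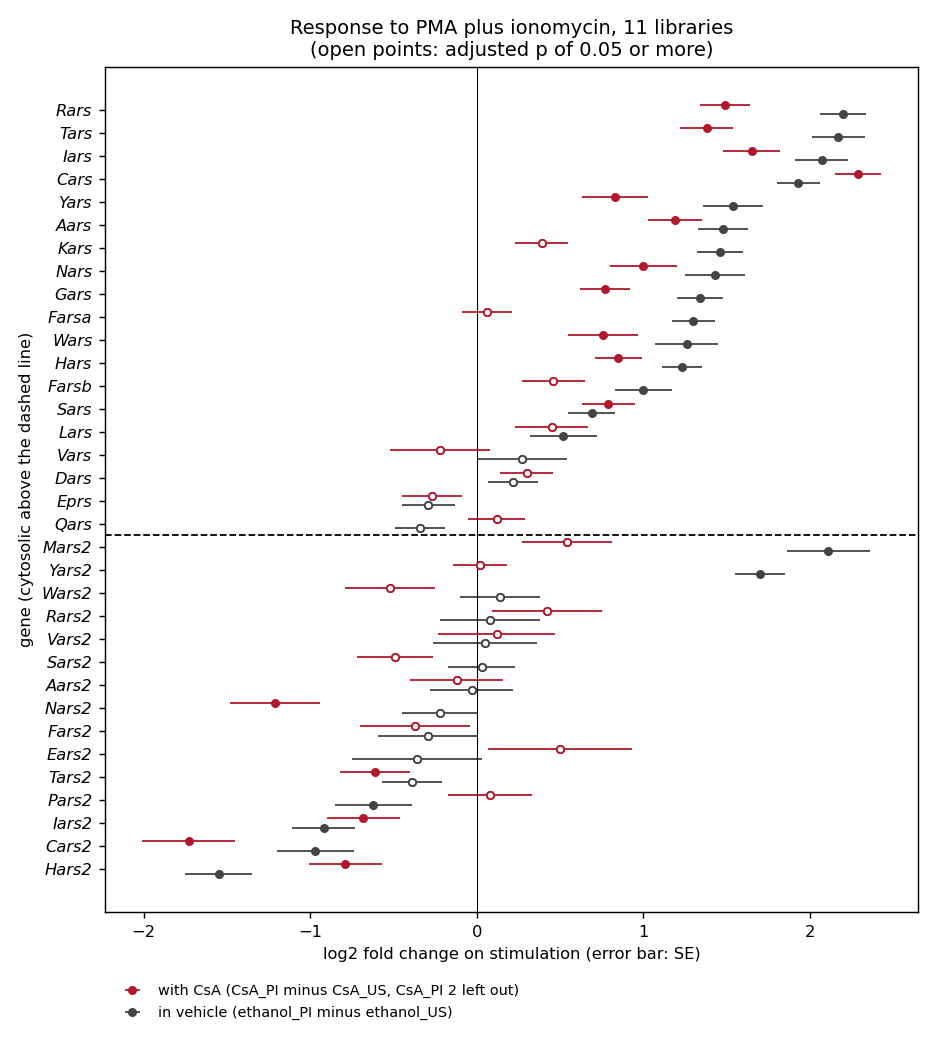
Log2 fold change on stimulation (x axis, bars are SE) with CsA (red, upper point of each gene) and in vehicle (grey, lower point), from the fit without CsA_PI 2, for 34 genes (y axis, cytosolic above the dashed line); open points did not pass the test. The gap is widest for Yars2, Mars2, Farsa and Kars, and Cars stands at 2.29 with CsA and 1.93 in vehicle, a difference that did not pass the test.

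The interaction, the stimulation effect with CsA minus that in vehicle, tests whether the response differed. With 12 libraries it was called lower for 2 cytosolic genes, Farsa (-1.33 ± 0.22) and Kars (-1.22 ± 0.24), and for 2 mitochondrial genes, Yars2 (-1.74 ± 0.21) and Mars2 (-1.73 ± 0.37). Their edgeR adjusted p values were 0.00263, 0.00698, 0.000687 and 0.0111. No member was called higher, while 6.19% of all genes were called lower and 3.54% higher. Without CsA_PI 2 the same 4 genes were called (-1.24, -1.07, -1.67 and -1.57) and Rars (-0.71 ± 0.20) and Tars (-0.79 ± 0.23) joined them (edgeR, adjusted p = 0.0369 for both), while 7.31% of all genes were called lower and 5.08% higher. Replicates 1 and 3 alone added Gars (-0.70 ± 0.19). Under library totals the same 4 genes as with 12 libraries were called, while 3.69% of all genes were called lower and 6.6% higher. With limma on log2 TPM, Farsa, Kars and Yars2 were called and Mars2 was not (-1.06; limma, adjusted p = 0.0672), while 3.98% of all genes were called lower and 4.75% higher. For Cars the interaction was -0.11 ± 0.59 with 12 and 0.37 ± 0.18 with 11 libraries, without a call (edgeR, adjusted p = 0.939 and 0.246). Farsa and its partner subunit Farsb (-0.67 ± 0.27; edgeR, adjusted p = 0.142) were not compared with each other.

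In unstimulated cells (CsA_US against ethanol_US) edgeR called 0 of 34 members with 12 or 11 libraries, while 0.00695% of all genes (1 gene) were called with 12 and 0.0465% (7 genes) with 11. At an unadjusted p under 0.05 there were 0 cytosolic genes and 1 mitochondrial gene, Wars2 (0.62 ± 0.25), among 465 of 14398 genes; DESeq2 called 0 members and 18 genes in all. Cytosolic log2 values ran from -0.34 to 0.31 and mitochondrial ones from -0.34 to 0.62. Rars, for example, had 71.7, 55.8 and 62.5 CPM in CsA_US, against 71.0, 79.3 and 78.7 CPM in ethanol_US, and Yars2 had 37.4, 29.8 and 32.8 CPM, against 29.5, 34.1 and 33.6 CPM, with overlapping groups in both.

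Partner genes of the charging pathway were counted from lists drawn up with earlier results of these data known. Of the 3 scaffold genes of the multi-synthetase complex, Eef1e1 and Aimp2 rose in vehicle. Aimp2 had 34.3, 29.2 and 30.9 CPM in CsA_PI, 132, 126 and 131 CPM in ethanol_PI, 38.2, 41.7 and 37.3 CPM in CsA_US, and 38.4, 30.4 and 51.5 CPM in ethanol_US. Eef1e1 had 98.0, 25.2 and 95.4 CPM in CsA_PI, 261, 242 and 251 CPM in ethanol_PI, 33.4, 23.1 and 24.4 CPM in CsA_US, and 28.2, 29.0 and 27.5 CPM in ethanol_US. Aimp2 was at its unstimulated level in all CsA_PI libraries, while Eef1e1 in CsA_PI 1 and 3 lay in between. Stimulation raised Aimp2 by 1.69 ± 0.19 and Eef1e1 by 3.15 ± 0.40, and with CsA they fell by 2.04 ± 0.19 and 1.79 ± 0.38 (edgeR, adjusted p from 1.83e-05 to 0.00544), or by 1.95 ± 0.20 and 1.34 ± 0.17 with 11 libraries. Aimp1, the remaining scaffold, had a log2 value of -0.55 ± 0.23 in vehicle with 12 libraries (edgeR, adjusted p = 0.0693) and fell by 0.61 ± 0.19 with 11 (edgeR, adjusted p = 0.0174).

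Of 10 genes of tRNA maturation, export and delivery, 7 rose in vehicle and 0 fell, with a median of 1.00, and 5 fell with CsA in stimulated cells and 0 rose, with 12 or 11 libraries. For this list and those after it, the shares of all genes with 12 libraries were 20.1% rising and 19.7% falling in vehicle, and 12.7% falling and 10.3% rising with CsA. Under library totals they were 11% and 37.8%, and 8.29% and 19.9%. Under library totals 5 of the 10 rose and 1 fell in vehicle, and 4 fell with CsA. Elac2, which cuts tRNA 3′ trailers, rose by 2.27 ± 0.24 and fell with CsA by 2.22 ± 0.24 (2.21 with 11 libraries). Pop1, a subunit of RNase P that trims tRNA 5′ leaders, rose by 2.53 ± 0.35 and fell with CsA by 1.38 ± 0.34 (1.11 with 11). Xpot, the tRNA exporter, had 45.0, 45.0 and 55.3 CPM in CsA_PI, against 144, 160 and 146 CPM in ethanol_PI. Xpot rose in vehicle by 1.86 ± 0.18 and fell with CsA by 1.63 ± 0.18 (1.54 with 11). Ssb, the La protein that binds new tRNA transcripts, rose by 1.07 ± 0.20. Eef1d, part of the exchange factor for the elongation factor that carries charged tRNA, rose by 1.52 ± 0.16 and fell with CsA by 1.31 ± 0.16 (1.15 with 11). Rpp30, Trnt1 and Eef1a1 were not called in vehicle.

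Of 9 mitochondrial charging partners, 5 rose in vehicle and 0 fell, with a median of 0.53, and 4 fell with CsA and 0 rose (3 with 11 libraries). Under library totals 2 rose and 1 fell in vehicle, and 1 fell with CsA. Tufm, the mitochondrial elongation factor that carries charged tRNA, had 161, 110 and 146 CPM in CsA_PI, against 257, 239 and 257 CPM in ethanol_PI. It rose in vehicle by 1.42 ± 0.17 and fell with CsA by 0.85 ± 0.17 (0.67 with 11 libraries). Gfm1, the mitochondrial translocation factor, rose by 1.24 ± 0.23 and fell with CsA by 0.69 ± 0.23, a call lost with 11 libraries (-0.45; edgeR, adjusted p = 0.137). Gatc, a subunit of the enzyme that makes mitochondrial glutaminyl-tRNA by amidation, rose by 0.80 ± 0.18, while the other subunits Qrsl1 and Gatb had values of -0.65 ± 0.31 and -0.27 ± 0.47 without a call. Mtfmt, which formylates the methionyl-tRNA that Mars2 charges, had a log2 value of 0.62 ± 0.17 in vehicle (edgeR, adjusted p = 0.0117), beside 2.17 for Mars2.

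Of 8 amino acid response genes, 3 rose in vehicle and 1 fell, with a median of 1.35, and with CsA in stimulated cells 1 rose and 2 fell (with 11 libraries 2 fell in vehicle, Ddit3 at -0.59 joining). Under library totals 2 rose and 2 fell in vehicle, and with CsA 2 rose and 1 fell, the opposite balance. Psat1, of serine synthesis, had 48.5, 32.6 and 55.3 CPM in CsA_PI, 164, 145 and 140 CPM in ethanol_PI, 23.5, 21.9 and 19.9 CPM in CsA_US, and 14.6, 30.3 and 20.3 CPM in ethanol_US. It rose by 2.79 ± 0.27, and with CsA it fell by 1.72 ± 0.26 (1.49 with 11). Atf4 rose in vehicle by 1.46 ± 0.30 and Asns, asparagine synthetase, by 1.5 ± 0.36, neither with a call for CsA in stimulated cells (-0.39 ± 0.30 and -0.80 ± 0.36). With 11 libraries their values for CsA in stimulated cells were -0.13 ± 0.29 and -0.58 ± 0.38, again without a call. Trib3, an ATF4 target that restrains ATF4, fell in vehicle by 2.04 ± 0.45, with 1.55, 4.66 and 3.33 CPM in ethanol_PI, against 14.9, 10.4 and 14.4 CPM in ethanol_US. With CsA, Ddit3, the stress factor CHOP, rose by 0.90 ± 0.28 and Sesn2, a leucine sensor, fell by 1.09 ± 0.36 in stimulated cells (1.19 and -1.57 with 11 libraries).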

How the data were processed

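Polyadenylated RNA of 12 libraries was analysed. The submitters' processing notes name cutadapt, kallisto and the build mm10; versions and transcript annotation are not given in the sources used here. Per the file headers, the deposited tables hold an estimated count and a TPM value per transcript, TPM being scaled for length and depth. Transcripts were matched by identifier to GENCODE genes (108214 of 109617); the rest carried 0.494% to 0.628% of counts and were left out.

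Estimated counts were summed per gene and rounded. Tests used edgeR 4.0.16 in R 4.3.3: TMM scaling, a filter on expression within groups (at least 10 counts, total at least 15), robust quasi-likelihood fits of all 4 groups together, and Benjamini-Hochberg adjustment over all genes, called at an adjusted p under 0.05. The SE of a log2 fold change is its size divided by the square root of its F statistic. CPM values are TMM-scaled. The procedure was tested on simulated counts. Intervals and floors cover counting error only, since PCR copies are not independent.

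The members and gene lists were chosen with earlier results of these data known, and the motifs likewise. Values per library were given for the 4 cytosolic and 3 mitochondrial genes with the largest called change on stimulation in vehicle, for genes called against the majority of their class (with 2 each way among mitochondrial genes, all 4), and for up to 4 called in the interaction; partner genes were named where called with a log2 change of at least 1. Other genes with values (Eprs, Lars, Aars, Sars, Nars2, Pars2, Cars2, and smaller partners) were named after their values were seen.

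Equal replicate numbers were checked as pairs by correlating deviations from group means across genes: 0.143 to 0.319 (ethanol_PI with ethanol_US), 0.107 to 0.208 (CsA_PI with ethanol_PI), 0.196 to 0.325 (CsA_US with ethanol_US) and 0.033 to 0.123 (CsA_PI with CsA_US). Each value exceeded the highest correlation with another replicate number, which was at most 0.037. Libraries of equal number thus resembled each other, although the labels do not say what a number shares, and CsA_PI 2 resembles ethanol_US 2. Replicate 2 libraries also shared higher B cell and myeloid markers, whose part in these correlations was not tested. The main fit did not use the replicate number. The number entered as a block in an alternative fit. Others were RLE scaling, library totals, no filter, DESeq2 1.42.0, limma 3.58.1 on log2(TPM + 1) with a minimum mean TPM of 1, and each library left out. Fits of replicates 1 and 3 alone, and of the 11 libraries with a block or library totals, were added after seeing the data.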

Additional observations from a re-analysis of the deposited data

Results flagged for a closer look

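For 10 genes the response to stimulation with CsA differed from that in vehicle by the interaction test (edgeR, adjusted p under 0.05, all 12 libraries). Among the synthetases these were Yars2 (-1.74), Mars2 (-1.73), Farsa (-1.33) and Kars (-1.22), given as the stimulation effect with CsA minus that in vehicle on the log2 scale. Among partner genes they were Elac2 (-2.14), Aimp2 (-2.01), Psat1 (-1.73), Eef1d (-1.61), Xpot (-1.52) and Tufm (-0.90). In all 10 the value with CsA was the lower, and all 10 were also called without the library labelled CsA_PI 2. The 10 came from the 34 members and the partner lists, which were drawn up with earlier results of these data known. Over all 14398 genes tested with 12 libraries, 6.19% were called lower and 3.54% higher. The 4 synthetases were called in the fit of all libraries and in every fit that left out 1 of the 12; with limma on log2 TPM the call of Mars2 was lost (-1.06, adjusted p = 0.0672).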

How the results depend on the processing

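The 34 members were compared in 21 other settings. In 13 fits with TMM scaling (all libraries, and each of 12 left out) 13 cytosolic rises and 3 mitochondrial changes (Hars2, Mars2, Yars2) on stimulation in vehicle were always called, as were 8 cytosolic falls with CsA in stimulated cells and those of Mars2 and Yars2. Of these 8, Hars and Wars were not called under library totals (edgeR, adjusted p = 0.0689 and 0.105). Nor were they with limma on log2 TPM (limma, adjusted p = 0.0799 and 0.116). Of the 13 rises, that of Farsb was not called under library totals (edgeR, adjusted p = 0.0514). Leaving out 1 library gave 13 to 15 cytosolic and 3 to 6 mitochondrial calls for stimulation in vehicle, 8 to 11 and 2 to 4 for CsA in stimulated cells, 0 to 11 and 0 to 5 for stimulation with CsA, and 2 to 4 and 2 to 3 for the interaction. Over all genes tested, calls in those fits ran from 4511 to 6581, 2233 to 3393, 0 to 4321 and 787 to 1865, in the same order. Mitochondrial calls for stimulation in vehicle, 4 with all libraries, were 7 under library totals, 7 with limma on log2 TPM and 10 with 11 libraries and library totals; for CsA in stimulated cells, 3 became 5, 5 and 5 under the same settings.

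For stimulation with CsA, 6 cytosolic calls became 0 under library totals, 3 without the filter, 0 with limma, 12 with 11 libraries and the block, 10 with 11 libraries and library totals, and 12 with replicates 1 and 3; 0 mitochondrial calls became 1 with DESeq2, 5 with 11 libraries and the block, 7 with 11 libraries and library totals, and 5 with replicates 1 and 3. In the interaction, 2 cytosolic calls became 5 with DESeq2, 4 with 11 libraries and the block and 5 with replicates 1 and 3, and 2 mitochondrial calls became 1 with limma, which lost Mars2. For stimulation with CsA, 0.0347% of all genes rose under library totals and 0.311% with limma. In this section no share of all genes is given for the fits without the filter, with DESeq2 or with a block. Nor is one given for 11 libraries with library totals or for replicates 1 and 3. The member counts of those fits therefore cannot be set against all genes. The cause was not tested.

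With the replicate number as a block, stimulation with CsA gave 3 cytosolic calls in place of 6, and Cars2 was added for stimulation in vehicle; no other member's call changed. Among members called in either of the fits compared, signs turned for Lars on stimulation in vehicle (-0.01 under library totals, -0.01 on log2 TPM, -0.01 with 11 libraries and library totals) and Sars2 (-0.52 with 11 libraries and library totals). Cars turned for CsA in stimulated cells without CsA_PI 2 (0.41, the range over libraries left out being -0.41 to 0.41), with the block added (0.43) and with library totals (0.59), and in the interaction with 11 libraries and library totals (0.57). Without a call, Cars also turned under library totals with 12 libraries (0.19 for CsA in stimulated cells, 0.17 in the interaction) and with 11 libraries (0.37 in the interaction). Called or not, library totals turned the sign of 8 of 34 members for stimulation in vehicle, 8 for CsA in stimulated cells, 7 for stimulation with CsA and 9 in the interaction. There were 3 libraries a group, which limits every p.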
